A study of Mus musculus with 12 samples.

Results

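Carboxylesterases are serine hydrolases that cleave ester bonds in lipids and drugs. The 10 mouse carboxylesterase genes described here are Ces1b, Ces1c, Ces1d, Ces1e, Ces1f, Ces1g, Ces2a, Ces2e, Ces2g and Ces3a, found by matching the Ensembl identifier of each row to its gene symbol, among 55359 genes in the count table. They were picked with their changes in all 3 comparisons already known, so those changes are given as a description and not as a test. All 10 passed the filter on low counts. The table held 20 carboxylesterase genes in all, and the other 10 are described after them.

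The study measured RNA by poly(A)-selected, stranded sequencing in livers of male C57BL/6NTac mice, with 4 mice in each of 3 groups. The lean group was kept on normal chow and the HFD control group on a high-fat diet, both with Control-mRNA, while the NM-FGF19 group was kept on the high-fat diet and given mRNA for NM-FGF19, a non-mitogenic form of the hormone FGF19. Every mouse, lean ones included, was injected weekly for 6 weeks with mRNA in lipid nanoparticles (LNPs), so no group shows an uninjected liver, and tissue was taken 24 hours after the last dose. Diet preceded treatment by 21 weeks in the design text, total feeding is labelled as 28 weeks, and an age of 24 weeks is stated without its reference point. The identifiers of the HFD control libraries carry the term mOX40L and those of the lean libraries do not, so a difference in control mRNA between these groups cannot be told apart from diet.

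Libraries held 23743415 to 33257260 counts. The libraries farthest from the rest of their group by principal components were lean 3 and HFD control 3, at 59.9 and 46.1 from the group centre. NM-FGF19 4 at 43.3 and HFD control 2 at 40.55 were close behind the latter. Alb, for albumin, the defining hepatocyte product, was present in every library and changed by 1.18 ± 0.24 (log2, SE) between NM-FGF19 and HFD control (edgeR adjusted p = 0.0598), and 4 of 21 alternatives called it. The summed level of 8 hepatocyte markers, all 8 of them detected, ranged from 71870 to 86850 CPM (counts scaled to library size) in lean, 43230 to 63370 in HFD control and 76790 to 121000 in NM-FGF19 livers. Most of this sum was Alb, which averaged 54574, 33264 and 75269 CPM in these groups. Of the 8 markers, 0 were called in any comparison, with 0 higher and 3 lower between the diets and 2 higher and 0 lower with treatment at an unadjusted p under 0.05. Their median log2 change was −0.47 between the diets, 0.13 with treatment and −0.18 between NM-FGF19 and lean, where 0 were higher and 1 lower at that unadjusted p. The part of this sum in the carboxylesterase differences was not tested.

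In mouse liver, enzymes of the Ces1 group are retained in the endoplasmic reticulum or, as with Ces1c, secreted into plasma. Several of them hydrolyse stored triglyceride, which feeds the assembly of very low density lipoprotein (VLDL). Ces2 enzymes hydrolyse acylglycerols and many ester drugs, and human members of both groups activate prodrugs.

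All 20 genes lie on chromosome 8 in the GENCODE vM21 annotation. The Ces1 genes and Ces5a come first, on the minus strand, followed on the plus strand by the Ces2 genes, Ces3a, Ces3b and Ces4a. Ces1b and Ces1c are neighbours with 91.2% identical coding sequence, against 74.6% to 81.6% for the other 14 pairs of the Ces1 genes described. The 3 Ces2 pairs were 81.6% to 83.3% identical, and the 27 pairs from different groups 62.9% to 67.3%.

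Promoter sequences from RefSeq (GRCm38.p6) were found for 7 of the 10 genes, Ces1d, Ces1f and Ces3a having no entry. The windows of Ces1b, Ces1c and Ces1g are shown because Ces1b and Ces1c have near-identical sequence and different values in the treated livers, while Ces1g has values low in the same livers as Ces1b. They cover the 250 bases before the start on the minus strand, at chr8:93079941-93080190 for Ces1b (1 of 2 windows listed for it), chr8:93131284-93131533 for Ces1c and chr8:93337210-93337459 for Ces1g. Capitals mark the letters TTATGTAA, a form of the D-box that the clock-output factors Dbp, Tef and Hlf and the repressor Nfil3 can bind.
Ces1b: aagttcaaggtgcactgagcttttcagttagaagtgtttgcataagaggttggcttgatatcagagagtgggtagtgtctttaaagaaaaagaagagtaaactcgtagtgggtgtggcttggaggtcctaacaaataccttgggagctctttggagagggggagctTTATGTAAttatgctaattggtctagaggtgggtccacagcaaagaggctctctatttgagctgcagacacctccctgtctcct
Ces1c: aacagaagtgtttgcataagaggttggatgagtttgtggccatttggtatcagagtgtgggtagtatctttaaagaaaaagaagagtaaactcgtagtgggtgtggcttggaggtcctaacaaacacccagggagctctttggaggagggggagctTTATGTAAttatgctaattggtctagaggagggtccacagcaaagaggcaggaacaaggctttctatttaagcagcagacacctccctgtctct
Ces1g: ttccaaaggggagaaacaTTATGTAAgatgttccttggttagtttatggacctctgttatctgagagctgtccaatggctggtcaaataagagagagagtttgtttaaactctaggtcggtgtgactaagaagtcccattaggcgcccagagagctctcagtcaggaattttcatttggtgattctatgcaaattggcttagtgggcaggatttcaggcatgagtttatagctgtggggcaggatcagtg

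The motif was searched on both strands, without overlap with another motif searched. It stood in a window of 4 of the 7 genes, beginning 84 bases before the start in Ces1b, 94 in Ces1c, 81 in Ces1e and 232 in Ces1g. The Ces1b window not shown did not hold it. Of the other family genes with a window, Ces1a also held it. Of 32851 promoter windows of the same length, 0.819% held it, and 0.977% of the 27025 genes with a window did. The Ces1b and Ces1c windows aligned over 223 bases, of which 211 (94.6%) were identical.

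The windows of Ces2a, Ces2e and Ces2g, on the plus strand, are shown because these genes of the Ces2 cluster had different values in the treated livers. They lie at chr8:104733753-104734002 for Ces2a, chr8:104926010-104926259 for Ces2e and chr8:104961468-104961717 for Ces2g. Capitals mark ACTTTGCCC, letters the 3 share, chosen by reading these promoters.
Ces2a: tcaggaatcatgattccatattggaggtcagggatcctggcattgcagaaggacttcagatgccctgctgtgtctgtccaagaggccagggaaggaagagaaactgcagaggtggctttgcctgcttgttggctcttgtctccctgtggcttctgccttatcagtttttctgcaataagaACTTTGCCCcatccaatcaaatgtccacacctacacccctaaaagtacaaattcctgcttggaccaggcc
Ces2e: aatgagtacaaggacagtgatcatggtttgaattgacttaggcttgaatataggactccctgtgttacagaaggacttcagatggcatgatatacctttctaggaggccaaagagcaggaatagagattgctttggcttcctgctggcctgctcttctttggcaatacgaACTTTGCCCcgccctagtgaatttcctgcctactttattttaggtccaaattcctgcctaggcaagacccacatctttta
Ces2g: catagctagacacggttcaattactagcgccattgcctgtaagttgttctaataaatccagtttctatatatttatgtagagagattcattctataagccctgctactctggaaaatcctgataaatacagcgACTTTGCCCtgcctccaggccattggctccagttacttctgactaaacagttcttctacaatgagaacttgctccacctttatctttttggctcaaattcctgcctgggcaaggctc

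This stretch began 70, 80 and 117 bases before the start of Ces2a, Ces2e and Ces2g, and was also in the window of Ces2f. It stood in 0.222% of all windows. The letters CCAAT (37.5% of all genes with a window) were in 5 of the 7 genes, AGGTCA (15.8%) in 1, Ces2a, and CACGTG (6.86%) in 0. A match describes the letters and not a site in use.

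Level per coding length, in CPM per kilobase, put Ces3a and Ces1c far above the rest in every group. Coding lengths were nearly equal, at 1665 bases for Ces1c and 1716 for Ces3a. Whole transcripts differed more, from 1828 bases for Ces1c to 2859 for Ces2g. Levels per whole transcript were not computed, and the order of the middle and lower genes can depend on which length is used. In lean livers Ces3a averaged 1178 ± 245 (SD, n = 4 for every mean here) and Ces1c 862 ± 124 CPM per kilobase. Ces1d followed at 105 ± 34, Ces1f at 80.6 ± 43.4, Ces1g at 64.1 ± 18.1, Ces2a at 62.3 ± 22 and Ces2e at 58.1 ± 10.7, a run whose neighbours differed by less than their SD. Ces2g, Ces1b and Ces1e, at 28.1 ± 4.6, 25.7 ± 7.5 and 25.7 ± 11.9, were the lowest and did not separate from each other.

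The order of the middle and lower genes changed between groups. In HFD control livers Ces1d (211 ± 58) and Ces1f (168 ± 46) stood above Ces1g (85.4 ± 17.4) and Ces2e (77.1 ± 20.9), all as CPM per kilobase. In NM-FGF19 livers Ces1f (157 ± 67) and Ces2e (123 ± 15) came next after Ces3a (1196 ± 271) and Ces1c (786 ± 151). Ces1d was then at 78.8 ± 31.1, Ces2g at 46.0 ± 3.2, Ces2a at 44.2 ± 20.4, Ces1g at 25.9 ± 7.1, Ces1e at 21.5 ± 5.3 and Ces1b last at 8.65 ± 4.00. Ces1d overlapped Ces2a within SD there, while Ces1b stood below Ces1e by more than either SD.

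**Figure D1:**
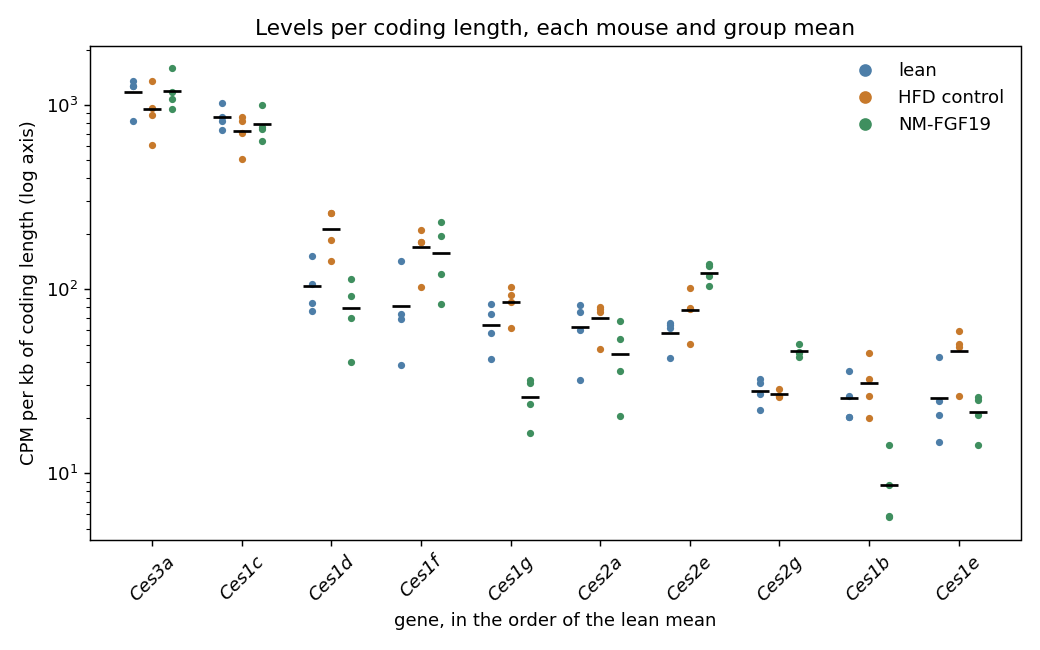
CPM per kilobase of coding length (log axis) for the 10 genes, in the order of their lean means, with a point for each of the 4 mice a group and a bar at the group mean. Ces3a and Ces1c form the upper tier, Ces1b has its lowest points in NM-FGF19, and Ces2g and Ces2e have their highest points there.

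The 10 genes together took 0.381 ± 0.0998% of all raw counts, without TMM scaling, in lean, 0.447 ± 0.047% in HFD control and 0.425 ± 0.040% in NM-FGF19 livers. These ranges overlapped. With TMM scaling their sum was 3107 to 4948 CPM in lean, 3285 to 4548 in HFD control and 3695 to 4734 in NM-FGF19 livers. The scaled ranges overlapped too, and HFD control no longer had the highest mean. Of that sum, Ces3a and Ces1c took 47.9% and 34.4% in lean, 39.6% and 29.5% in HFD control, and 48.7% and 31.1% in NM-FGF19 livers. The sum therefore mainly records these 2 genes, and the differences described next lie among genes with small shares.

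Ces1b and Ces1c, the most alike pair, parted under treatment. Ces1b was at 61.4, 34.4, 34.4 and 45.03 CPM in the 4 lean livers, 44.9, 55.2, 34.0 and 77.0 in HFD control and 10.03, 24.4, 14.7 and 9.83 in NM-FGF19. Every NM-FGF19 liver was below every liver of both other groups. Its log2 change was −1.84 ± 0.33 (SE) against HFD control and −1.57 ± 0.33 against lean, and 0.27 ± 0.32 between the diets. In bulk liver, fewer cells of a type and less RNA per cell cannot be told apart. Ces1b fell past the threshold in both treatment comparisons (edgeR, Benjamini-Hochberg over all 15274 genes), but that call was lost in 12 of 21 alternatives against HFD control and 13 of 21 against lean, the size staying between −2.20 and −1.60 in the first and −1.92 and −1.36 in the second. The single libraries whose absence ended the call against HFD control were lean 4, all 4 HFD control libraries and NM-FGF19 1, 3 and 4. Against lean they were all 4 lean libraries, HFD control 1 and 2, and NM-FGF19 1, 3 and 4.

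Ces1c, which encodes the secreted plasma carboxylesterase, was at 1712, 1368, 1221 and 1438 CPM in lean, 1169, 1364, 844 and 1442 in HFD control and 1067, 1661, 1238 and 1266 in NM-FGF19 livers. The 3 groups overlapped, with log2 changes of −0.25 ± 0.20 between the diets, 0.12 ± 0.20 with treatment and −0.13 ± 0.20 between NM-FGF19 and lean. Within each liver, the ratio of Ces1b to Ces1c counts was 0.0252 to 0.0359 in lean, 0.0384 to 0.0534 in HFD control and 0.00776 to 0.0147 in NM-FGF19. These 3 ranges did not overlap. Of the 101-base windows of the Ces1b transcript, the length of 1 read, 1.18% were shared with Ces1c, and 1.27% in the reverse direction. Ces1c averaged 1308 CPM in NM-FGF19 livers and Ces1b 14.7, so a small shared part of Ces1c can weigh on Ces1b. How reads with several matches were counted is not given. The Ces1b level, its ratio to Ces1c and their co-variation described below carry that uncertainty.

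Ces1g and Ces1f, on neighbouring positions with 74.6% identical coding sequence, also parted. Ces1g, for an enzyme that hydrolyses cholesteryl esters and triglyceride, was at 141, 98.5, 71.0 and 124 CPM in lean, 145, 104, 174 and 157 in HFD control and 28.2, 54.3, 52.6 and 40.6 in NM-FGF19 livers. All 4 NM-FGF19 livers were below all 8 others. The log2 change was −1.72 ± 0.25 against HFD control, −1.31 ± 0.25 against lean and 0.41 ± 0.24 between the diets. Ces1g fell past the threshold in both treatment comparisons. The call against HFD control was kept in 20 of 21 alternatives and that against lean in 17, where leaving out lean 4, NM-FGF19 1 or NM-FGF19 4 ended it.

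Ces1f, which encodes triacylglycerol hydrolase 2, was at 239, 123, 65.7 and 116 CPM in lean, 304, 173, 353 and 306 in HFD control and 140, 389, 203 and 328 in NM-FGF19 livers. The NM-FGF19 livers covered the range of the HFD control livers and overlapped lean 1. Its log2 change was −0.10 ± 0.39 against HFD control, 0.96 ± 0.40 against lean and 1.06 ± 0.40 between the diets, none past the threshold in edgeR. The diet change was past it in DESeq2, with library totals alone and without lean 1, the highest lean liver. The ratio of Ces1g to Ces1f counts was 0.593 to 1.08 in lean, 0.477 to 0.604 in HFD control and 0.124 to 0.259 in NM-FGF19 livers. The NM-FGF19 ratios lay below both other groups, which overlapped each other.

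**Figure D2:**
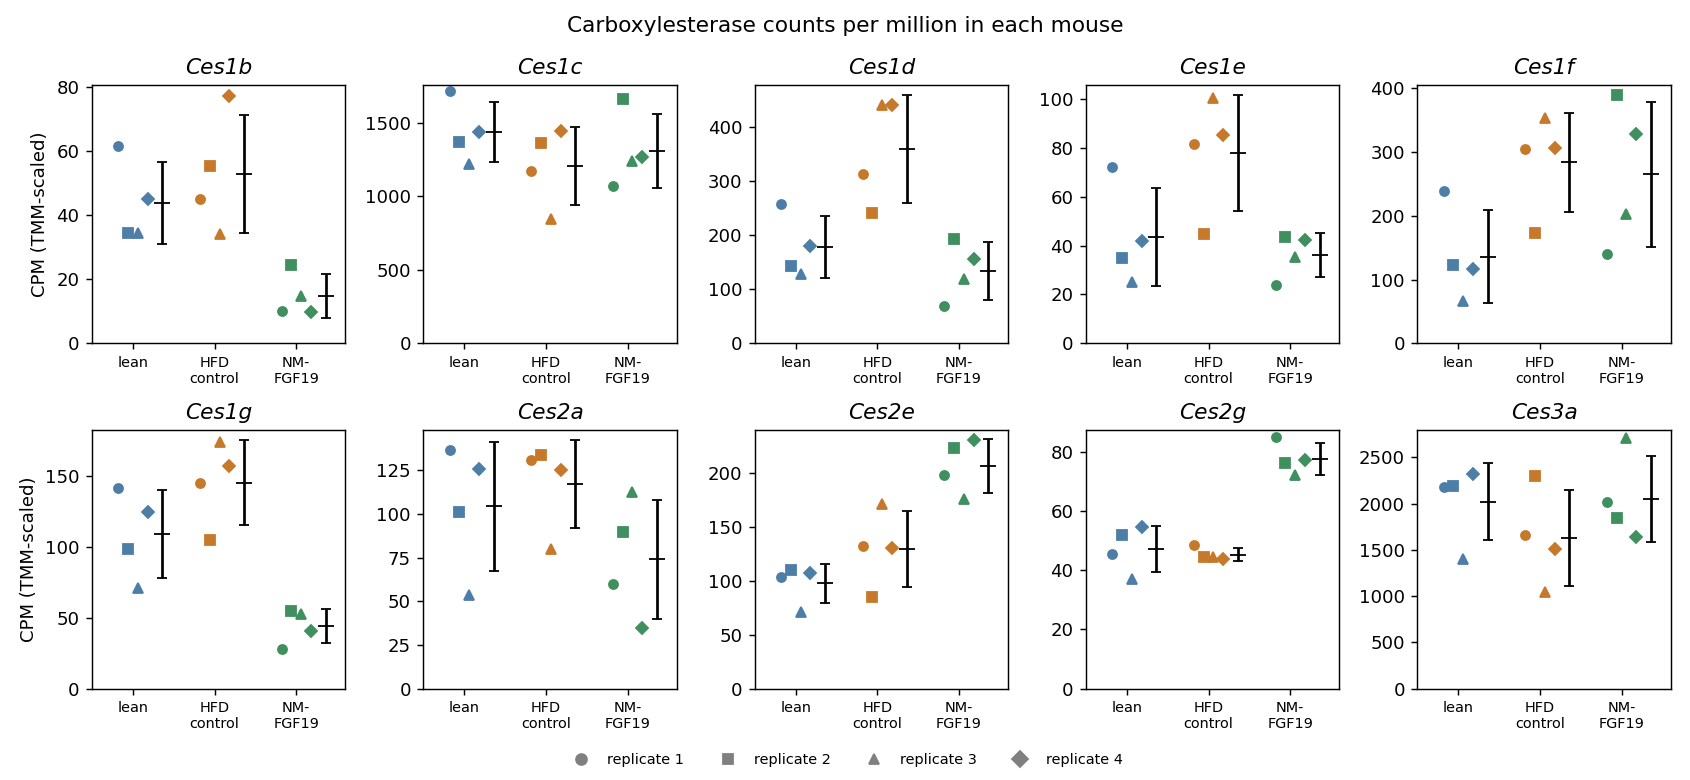
CPM (TMM-scaled, linear axes from 0) of each of the 10 genes, 1 symbol a mouse with its shape giving the replicate number, and mean ± SD (n = 4) in black. The NM-FGF19 points of Ces1b and Ces1g lie below all others and those of Ces2e and Ces2g above all others, while Ces1c, Ces1f and Ces3a overlap in all 3 groups.

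Ces1d and Ces1e had their highest means in HFD control livers and values near lean in NM-FGF19 livers. Ces1d, for triacylglycerol hydrolase, which mobilises stored triglyceride for VLDL, was at 258, 143, 129 and 180 CPM in lean, 312, 241, 441 and 441 in HFD control and 68.6, 192, 119 and 156 in NM-FGF19. The HFD control livers were all above the NM-FGF19 livers, and HFD control 2 was below lean 1. The log2 change was 1.02 ± 0.31 between the diets, −1.42 ± 0.32 with treatment and −0.41 ± 0.31 between NM-FGF19 and lean, none past the threshold in edgeR. The diet change was past it in 6 of 21 alternatives, among them DESeq2, library totals alone, and the fits without lean 1, HFD control 2 or NM-FGF19 1. The treatment change was past it in DESeq2.

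Ces1e encodes egasyn, which holds beta-glucuronidase in the endoplasmic reticulum. It was at 71.9, 35.0, 25.1 and 41.7 CPM in lean, 81.7, 44.6, 100.4 and 85.3 in HFD control and 24.0, 43.6, 35.2 and 42.2 in NM-FGF19 livers. HFD control 2, the lowest of its group, was just above the highest NM-FGF19 liver. The log2 change was 0.84 ± 0.32 between the diets, −1.11 ± 0.33 with treatment and −0.26 ± 0.32 between NM-FGF19 and lean, none past the threshold in edgeR. The treatment change was past it in DESeq2, and the diet change with library totals alone and without lean 1. Gusb, for beta-glucuronidase, changed by 0.30 ± 0.17, −0.46 ± 0.17 and −0.15 ± 0.17 in the same order (edgeR adjusted p = 0.296, 0.415 and 0.709), with its NM-FGF19 livers all below its HFD control livers.

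The Ces2 genes went apart in the opposite arrangement, with Ces2g and Ces2e high in treated livers and Ces2a not. Ces2g was at 45.5, 51.8, 37.1 and 54.5 CPM in lean, 48.5, 44.3, 44.3 and 43.8 in HFD control and 84.9, 76.1, 72.0 and 77.0 in NM-FGF19. The HFD control livers sat within the lean range, and every NM-FGF19 liver was above all 8 others. The log2 change was 0.78 ± 0.12 against HFD control, 0.71 ± 0.12 against lean and −0.06 ± 0.12 between the diets, the smallest SE among the 10 genes in each comparison. Ces2g rose past the threshold in both treatment comparisons. That against HFD control was lost in 6 of 21 alternatives, with library totals alone, with the replicate number as a block and without HFD control 1, 3 or 4 or NM-FGF19 1, and that against lean in 2, with the block and without NM-FGF19 1. Its size ranged from 0.64 to 0.81 and from 0.63 to 0.89.

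Ces2e was at 103, 110 (109.8), 70.9 and 107 CPM in lean, 132, 84.8, 171 and 130.5 in HFD control and 198, 223, 175 and 229.9 in NM-FGF19 livers. The NM-FGF19 livers were above all others, by the narrowest margin between NM-FGF19 3 and HFD control 3. The log2 change was 1.08 ± 0.20 against lean, past the threshold, 0.67 ± 0.20 against HFD control, not past it, and 0.41 ± 0.20 between the diets. The first was lost with the replicate block and without NM-FGF19 1 or NM-FGF19 4.

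Ces2a, whose enzyme hydrolyses acylglycerols, was at 137, 101, 53.8 and 126 CPM in lean, 131, 134, 79.8 and 125 in HFD control and 60.0, 89.6, 113 and 34.4 in NM-FGF19 livers. The groups overlapped, with log2 changes of 0.17 ± 0.35 between the diets, −0.66 ± 0.35 with treatment and −0.49 ± 0.35 between NM-FGF19 and lean. The ratio of Ces2g to Ces2a counts was 0.332 to 0.690 in lean, 0.332 to 0.555 in HFD control and 0.639 to 2.24 in NM-FGF19 livers. Only the HFD control and NM-FGF19 ranges were apart. The ratio of Ces2e to Ces2a was 0.755 to 1.32, 0.634 to 2.14 and 1.56 to 6.68 in these groups. Of the 101-base windows of Ces2a, 10.6% were shared with the gene Gm7208, which received 1 count over all 12 libraries.

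Ces3a, the most abundant of the 10 per coding length, was at 2179, 2185, 1399 and 2320 CPM in lean, 1659, 2303, 1044 and 1509 in HFD control and 2015, 1839, 2712 and 1642 in NM-FGF19 livers. The groups overlapped, with log2 changes of −0.31 ± 0.25, 0.33 ± 0.25 and 0.02 ± 0.25 in the same order. Its coding sequence is 95.3% identical to that of Ces3b, and 8.89% of its 101-base windows are shared with it, so the split of counts between them is uncertain.

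Between the diets, 0 of the 10 genes passed the threshold in edgeR, where 8.33% of all genes tested did. At an unadjusted p under 0.05 there were 3, all higher (13% of all genes). DESeq2 called 2 higher (8.5% of all genes) and voom 0 (4.01% of all genes higher and 3.06% lower). Between NM-FGF19 and HFD control, 1 was called higher and 2 lower, where 0.432% of all genes were called, 0.282% higher and 0.151% lower. Without overlap between these groups, 2 were higher and 4 lower, beside 3.23% and 2.38% of all genes. Between NM-FGF19 and lean, 2 were called higher and 2 lower, where 1.49% of all genes were called, 1.01% higher and 0.484% lower. The same 2 and 2 did not overlap there, beside 5.46% and 4.84% of all genes. The genes were picked with these contrasts in view, so nothing is read from the shares. The median log2 change over the 10 was 0.34, −0.38 and −0.20, beside −0.02, −0.00046 and −0.01 over all genes. With library totals alone the all-gene medians were 0.29, −0.13 and 0.17. The HFD control livers enter the first and second comparisons and the NM-FGF19 livers both treatment comparisons, so the changes are not independent.

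**Figure D3:**
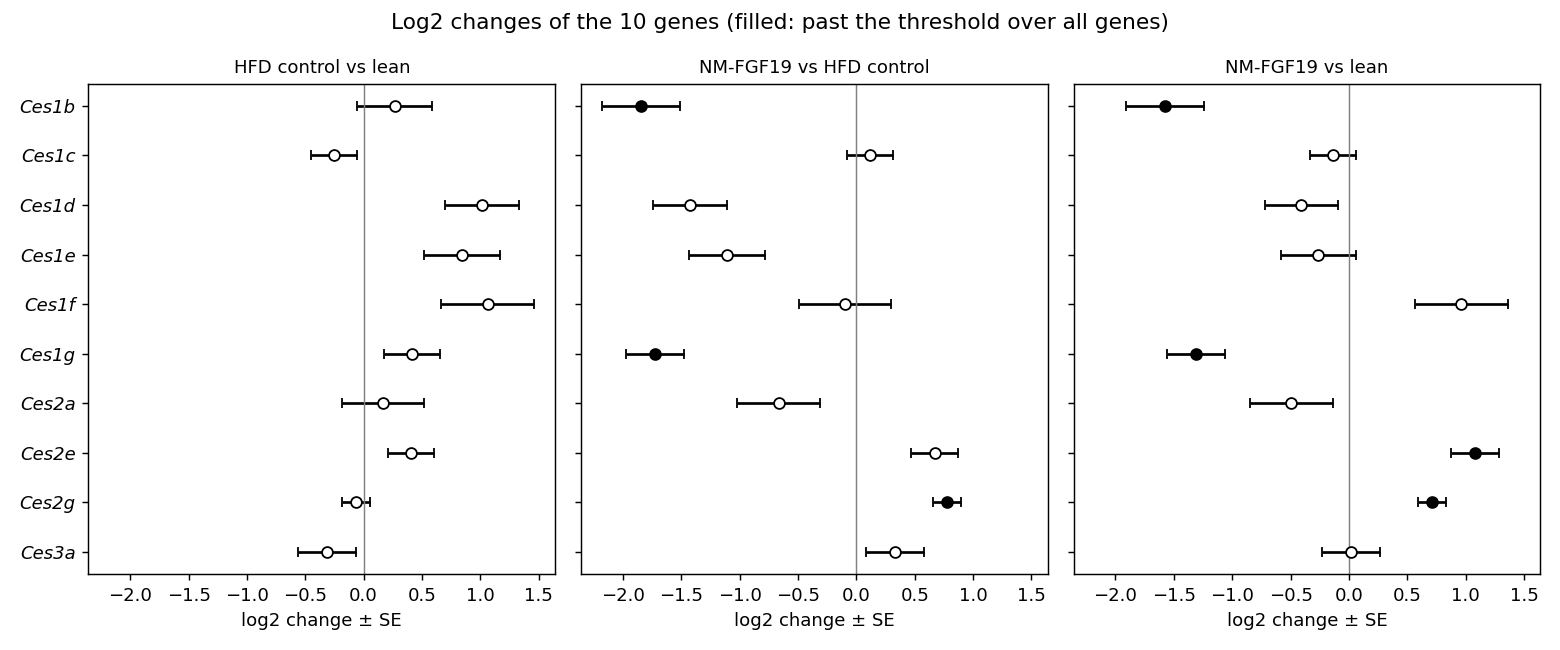
Log2 change ± SE of the 10 genes in the 3 comparisons, filled where the adjusted p over all genes was under 0.05. Ces1b and Ces1g lie to the left and Ces2g to the right in both treatment panels with filled points, Ces2e is filled against lean, and no point is filled between the diets.

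Without lean 3 and HFD control 3 together, a choice made after seeing the data, the counts of called genes among the 10 were 0 higher between the diets, 1 higher and 1 lower against HFD control, and 2 higher and 1 lower against lean. Over all genes the same counts were 323, 24 and 14, and 165 and 64. Ces1b was the gene that dropped out, at −2.01 against HFD control and −1.66 against lean.

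Of the other 10 carboxylesterase genes, 5 passed the filter (Ces2b, Ces2c, Ces2h, Ces3b and Ces4a) and 5 did not (Ces1a, Ces1h, Ces2d-ps, Ces2f and Ces5a). Ces1a averaged at most 0.179 CPM in a group and Ces5a had 0 counts in all 12 libraries, where 3 counts correspond to 0.0792 to 0.153 CPM. None of the 5 that passed was called in edgeR, DESeq2 or voom in any comparison, and 0 had an unadjusted p under 0.05 in edgeR. Their median log2 changes were −0.32, 0.76 and 0.20 and depended on single libraries.

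Ces3b, the close copy of Ces3a, was at 635, 583, 386 and 631 CPM in lean, 128.5, 581, 39.6 and 129 in HFD control and 260, 244, 728 and 141 in NM-FGF19 livers. HFD control 2 was alone within its group in standing among the lean livers. The log2 change between the diets was −1.35 ± 0.71 (edgeR adjusted p = 0.278), and −2.49 without HFD control 2 (adjusted p = 0.0268). Ces4a was at 6.47, 8.83, 5.05 and 7.04 CPM in lean and 1.53, 6.35, 0.107 and 0.512 in HFD control livers, again with HFD control 2 the highest of its group. Its change was −1.69 ± 0.89 (adjusted p = 0.276), and −3.24 without HFD control 2 (adjusted p = 0.0324). With treatment, Ces4a changed by 1.89 ± 0.89 (adjusted p = 0.577) and Ces3b by 0.64 ± 0.71 (adjusted p = 0.877).

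Ces2c, for a liver acylglycerol hydrolase, was at 21.0, 21.8, 4.28 and 30.8 CPM in lean, 31.1, 24.0, 18.3 and 20.4 in HFD control and 39.8, 49.5, 57.1 and 12.99 in NM-FGF19 livers. Its changes were 0.27 ± 0.52, 0.76 ± 0.52 and 1.03 ± 0.52 (adjusted p = 0.7999, 0.737 and 0.354), and 15.7% of its 101-base windows are shared with pseudogenes. Ces2b and Ces2h were near 1 CPM, with group means from 0.752 to 2.37 CPM.

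**Figure D4:**
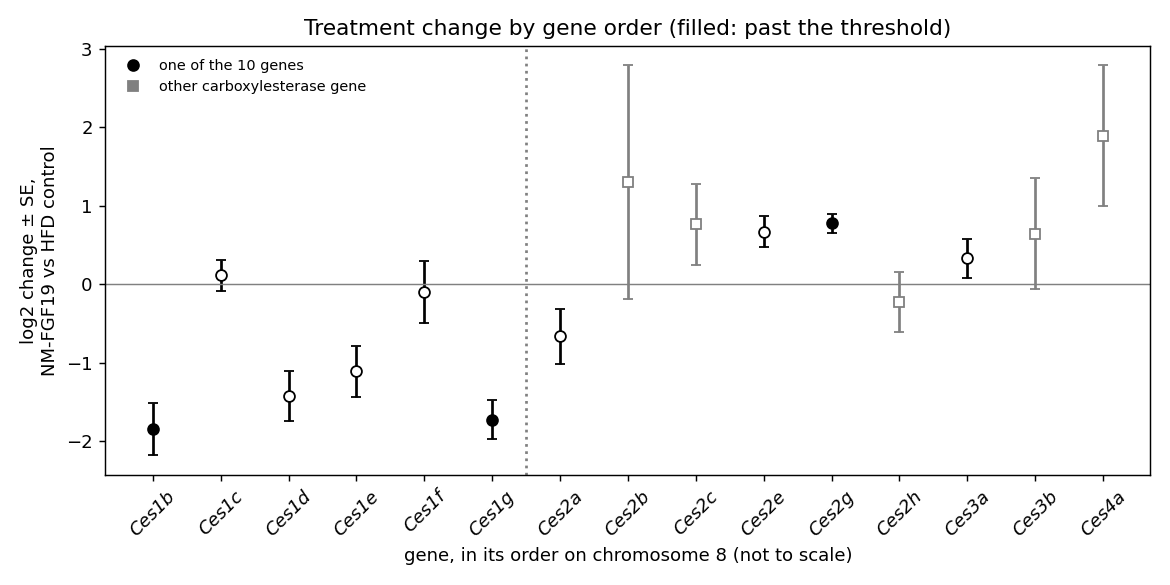
Log2 change ± SE between NM-FGF19 and HFD control for the 15 carboxylesterase genes that passed the filter, in their order on chromosome 8 (not to scale, dotted line between the Ces1 genes and the rest), filled where the adjusted p was under 0.05. Ces1b and Ces1c, side by side, lie at −1.84 and 0.12, and Ces2a and Ces2e at −0.66 and 0.67.

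Mice of a group also differed from each other, a spread that enters the comparisons known when the 10 genes were picked. Over the 12 livers, deviations from the group means on the log2 CPM scale were correlated, as a description over libraries that share their depth, scaling and mouse. Over the 45 pairs of the 10 genes the median Pearson's r was 0.38, with a range of −0.41 to 0.95. The 7 pairs above 0.8 were the 6 pairs among Ces1d, Ces1e, Ces1f and Ces1g (0.83 to 0.95) and the pair Ces1b and Ces1c (0.89). Ces1b with Ces1g, the pair called lower in treated livers, was at 0.50.

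Co-variation between mice did not follow the changes between groups for some pairs. Ces1f and Ces1g had r = 0.83 within groups and 0.17 over all 12 livers, and Ces1b and Ces1c 0.89 and 0.34. Ces2a varied with Ces2c (0.90 within groups) and not with Ces2e (−0.07). Ces3a, Ces3b and Ces4a formed another set, at 0.85 to 0.92 within groups and 0.85 to 0.89 over the 12 livers. Ces3a and Ces3b share 8.89% and 7.51% of their 101-base windows, so their co-variation carries the uncertainty in the split of their counts. Without the 2 livers farthest from the Ces3b median, Ces3a and Ces3b were at 0.76.

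The 4 Ces1 genes from Ces1d to Ces1g also varied with the clock-output genes, which were chosen after the promoters and values had been seen. Dbp was at 135, 47.8, 4.79 and 6.99 CPM in lean, 56.4, 23.2, 86.0 and 92.2 in HFD control and 35.5, 134, 42.4 and 103 in NM-FGF19 livers. Nfil3 was at 15.0, 30.5, 124 and 60.5, at 11.7, 45.5, 10.2 and 14.3, and at 14.7, 6.66, 15.4 and 7.72 CPM. Lean 1 had high Dbp and low Nfil3 and lean 3 the reverse, and the time of day at which each mouse was killed is not given in the labels. Ces1f had r = 0.87 with Dbp and −0.92 with Nfil3 within groups, and 0.88 and −0.91 over the 12 livers. Spearman's rho was 0.83 and −0.93. Without the 2 livers farthest from the median of Dbp or Nfil3, r became 0.73 and −0.78.

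Ces1e was at 0.80 with Dbp and −0.89 with Nfil3 within groups, Ces1d at 0.69 and −0.72, and Ces1g at 0.61 and −0.70. Over the 12 livers these pairs were weaker, at 0.56 and −0.46 for Ces1e, 0.38 and −0.24 for Ces1d, and 0.05 and 0.15 for Ces1g, whose sign with Nfil3 turned. Ces2e was at −0.82 with Nfil3 within groups and −0.86 over the 12 livers. Ces1b and Ces1c, whose windows hold the D-box letters nearest the start together with Ces1e, were at 0.34 and 0.36 with Dbp within groups. With Tef and Hlf, the other genes of that clock-output family, they were at 0.57 and 0.52 for Ces1b and 0.55 and 0.44 for Ces1c. Ces1e was at 0.76 and 0.72 with that pair, Ces1d at 0.71 and 0.59, Ces1f at 0.84 and 0.76, and Ces1g at 0.60 and 0.56. Dbp changed by 0.29 ± 0.92 and Nfil3 by −0.88 ± 0.66 between NM-FGF19 and HFD control (edgeR adjusted p = 0.973 and 0.781). Nfil3 changed by −1.50 ± 0.66 between the diets and −2.37 ± 0.68 between NM-FGF19 and lean (edgeR adjusted p = 0.191 and 0.109). DESeq2 called the latter. Dbp changed by 0.40 ± 0.92 and 0.69 ± 0.92 in these 2 comparisons (edgeR adjusted p = 0.83 and 0.77). The part of these genes in the carboxylesterase values was not tested.

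**Figure D5:**
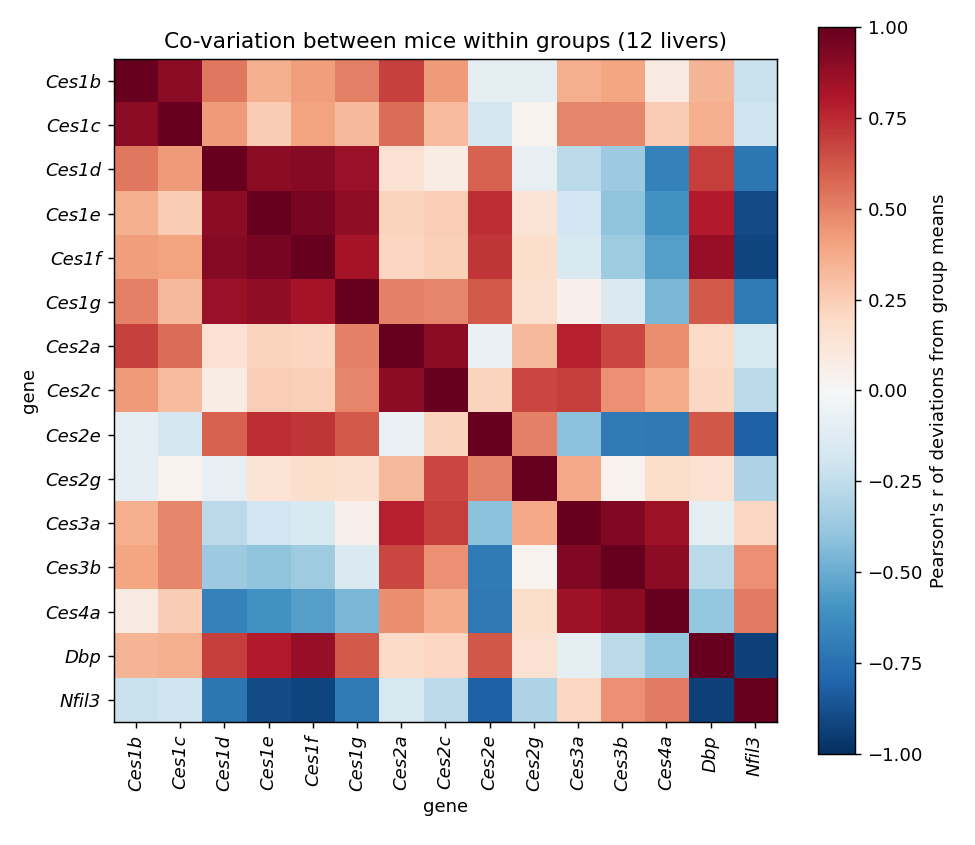
Pearson's r between log2 CPM deviations from group means over 12 livers, on a color scale from −1 to 1, for the 10 genes, Ces2c, Ces3b, Ces4a, Dbp and Nfil3. Ces1d to Ces1g form a block of 0.83 to 0.95 that is negative with Nfil3 and positive with Dbp, and Ces3a, Ces3b and Ces4a form another.

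The genes outside the family whose log2 CPM followed Ces1b most closely over the 12 livers were Cyp7a1 (r = 0.93), the rate-limiting enzyme of bile acid synthesis, Cyp2c29 (0.93), a drug-oxidising P450, and Saraf (0.92), a regulator of store-operated calcium entry. Cyp7a1 averaged 171 ± 181 CPM in lean, 237 ± 128 in HFD control and 8.59 ± 7.84 in NM-FGF19 livers. Within groups its r with Ces1b was 0.66. Ces1g had r = 0.82 with Cyp7a1 over all livers and 0.07 within groups.

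Ces2g was followed most closely by Tmem229a (r = 0.96), Mep1b (0.94), for a meprin protease subunit, and Wnk4 (0.91), for a kinase that regulates ion transport. Tmem229a was at 0.807 ± 0.222, 0.807 ± 0.086 and 3.29 ± 0.57 CPM in the lean, HFD control and treated groups. Its r with Ces2g within groups was 0.72. These values rest largely on the difference between treated and other livers, and 12 livers in 3 groups are the only points.

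The lists of related genes are read against all 15274 genes tested. In edgeR, 5.04% of these were called higher and 3.29% lower between the diets, 0.282% and 0.151% with treatment, and 1.01% and 0.484% between NM-FGF19 and lean. In DESeq2 the shares were 8.5% and 6.03%, 1.15% and 0.746%, and 3.93% and 2.41%, and in voom 4.01% and 3.06%, 0.203% and 0.131%, and 0.426% and 0.308%. At an unadjusted p under 0.05 in edgeR they were 13% and 11.5%, 4.75% and 4.2%, and 9.16% and 7.58%. The median log2 change of all genes was −0.02, −0.00046 and −0.01.

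Of 14 neutral lipid hydrolases and their regulators, 3 rose, 0 fell and 11 did not pass between the diets (median 0.28), against 0 called in either treatment comparison in edgeR. Lpl, for lipoprotein lipase, averaged 37.2 ± 11.0 CPM in lean and 126 ± 44 in HFD control livers and rose by 1.76 ± 0.27 (edgeR adjusted p = 0.00511). Lipo3, of an acid lipase family, rose by 1.16 ± 0.27 (adjusted p = 0.0205, lost without lean 4), and Abhd6, for a monoacylglycerol hydrolase, by 0.76 ± 0.18 (adjusted p = 0.0232, lost without lean 2, HFD control 3 or HFD control 4). At an unadjusted p under 0.05 the list had 2 higher and 3 lower with treatment, median −0.13, and 2 higher and 0 lower against lean, median 0.24. DESeq2 called 1 lower with treatment and 1 higher against lean, and voom 0 in both.

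Of 11 VLDL assembly partners, among them Mttp and Apob, 0 were called in any comparison by edgeR or voom. DESeq2 called 3 lower between the diets, 1 higher with treatment and 0 between NM-FGF19 and lean. At an unadjusted p under 0.05, 0 higher and 2 lower, 3 higher and 1 lower, and 0 higher and 1 lower were found in the same order. Of 13 nuclear receptors and factors, among them Nr1i2, Nr1i3 and Hnf4a, 0 were called by edgeR or voom, with 2 higher and 1 lower, 0 and 1, and 0 and 0 at an unadjusted p under 0.05. DESeq2 called 2 higher between the diets and 0 in both treatment comparisons.

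Of 10 other esterases and hydrolases of drugs and toxins, 2 rose, 0 fell and 8 did not pass between the diets, and 1 fell with treatment. Ephx1, for microsomal epoxide hydrolase, was at 210, 181, 188 and 250 CPM in lean, 401, 294, 659 and 356 in HFD control and 85.9, 109, 146 and 151 in NM-FGF19 livers. The 3 groups did not overlap. It rose by 1.05 ± 0.25 between the diets (edgeR adjusted p = 0.0232, lost without lean 2 or HFD control 3), and fell by 1.80 ± 0.25 on the log2 scale with treatment (adjusted p = 0.00786, at most 0.0423 in 21 alternatives). Ephx2, for soluble epoxide hydrolase, rose by 0.72 ± 0.19 (adjusted p = 0.0353) and lost that call in the fits that omitted lean 2, lean 3, lean 4, HFD control 2, HFD control 3 or HFD control 4.

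Of 11 tested of 13 targets of the drug receptors CAR and PXR, 2 rose, 0 fell and 9 did not pass between the diets. They were Abcc3, for an export pump, by 2.23 ± 0.37 (edgeR adjusted p = 0.00772), and Cyp3a11, a drug-oxidising P450, by 3.82 ± 0.74 (adjusted p = 0.0132, and 0.0675 without lean 3 and HFD control 3). Cyp3a11 has close copies, so its count is uncertain. With treatment 0 were called in edgeR and voom and 4 lower in DESeq2, with 8 lower at an unadjusted p under 0.05 and a median of −1.15. Between NM-FGF19 and lean 0 were called in edgeR and voom, with 3 higher and 2 lower at an unadjusted p under 0.05 and 3 higher and 1 lower in DESeq2.

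Ces genes are also active in gut, fat and kidney, so markers of those tissues were summed. Of 7 adipocyte markers, a list that includes the hepatocyte gene Pck1, 3 passed the filter and Lep was at 0, with sums of 1477 to 5079 CPM in lean, 1022 to 3383 in HFD control and 1122 to 1490 in NM-FGF19 livers. Nearly all of this sum was Pck1, which averaged 2765, 1981 and 1216 CPM. Cfd, for the fat cell product adipsin, was at 0, 0.186, 0 and 0 CPM in lean, 21.1, 0.754, 10.8 and 7.504 in HFD control and 0, 0.0385, 0 and 0.264 in NM-FGF19 livers. The HFD control livers did not overlap either other group, and held 1492 counts of Cfd against 4 in lean and 9 in NM-FGF19 livers. Cfd rose between the diets (edgeR adjusted p = 0.00848, lost in 2 of 20 alternatives) and fell with treatment (adjusted p = 0.0294, lost in 12 of 20). Plin4, for a lipid droplet coat protein, was at 3.66, 1.25, 61.2 and 1.88 CPM in lean, 46.0, 13.2, 141 and 118 in HFD control and 2.32, 0.924, 2.04 and 8.08 in NM-FGF19 livers. It changed by 2.24 ± 1.23 between the diets and −4.57 ± 1.38 with treatment (edgeR adjusted p = 0.297 and 0.288). The diet groups overlapped through lean 3, and the treated livers did not overlap HFD control. Cfd and Plin4 thus had their highest means in HFD control livers, while Pck1 had its highest mean in lean livers. Of the carboxylesterases described first, Ces1b, Ces1d, Ces1e, Ces1f, Ces1g and Ces2a also had their highest means in HFD control livers. Ces1c, Ces2e, Ces2g and Ces3a did not. The defining fat cell markers Adipoq and Plin1 held at most 4 counts in any group. Of 7 enterocyte markers, which include genes that liver also expresses, 2 passed and Alpi was at 0, with sums of 125 to 315, 277 to 2013 and 414 to 2290 CPM. The 4 kidney tubule markers summed to at most 0.231 CPM in any liver and the 6 pancreatic acinar markers to at most 1.33 CPM. Sums of 6 Kupffer cell and macrophage markers were 252 to 343, 75.5 to 177 and 72.1 to 210 CPM, and those of 4 stellate cell markers 72.5 to 81, 99.5 to 155 and 107 to 241 CPM. The part of these sums, and of Cfd and Plin4, in the carboxylesterase values was not tested.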

How the data were processed

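Per the submitters' processing notes, the authors used Trimmomatic, STAR, featureCounts and build mm39. Not given in the sources used here are versions, annotation, strand setting and the handling of reads with several matches. The deposited values are raw counts per gene. A stranded kit, 100 ng of RNA and paired reads of 101 bases were used per the labels. Of 55359 genes, 52083 had a symbol, 29250 a count and 15274 passed edgeR's filterByExpr (minimum count 10).

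All 12 libraries entered one edgeR 4.0.16 quasi-likelihood fit (robust, TMM scaling, R 4.3.3), two-sided, with Benjamini-Hochberg adjustment over all genes tested and a threshold of 0.05. SEs are the log2 change divided by the square root of F. CPM values are TMM-scaled. Correlations used log2 CPM with a prior count of 2. Totals, TMM factors (0.779 to 1.17) and the level of 3 counts (0.0792 to 0.153 CPM) set the precision, for counting error only. Replicates within a group differed beyond sampling noise, with a chi-square per degree of freedom of at least 41.1. P-values weigh a group difference against the spread between these mice, as the fit estimates it.

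The genes and lists were chosen with earlier results of these data known. Named genes were the 10 carboxylesterases, the other family genes, from each list the 2 called genes with the smallest adjusted p per direction, Gusb, Alb, and the 3 genes most like Ces2g and Ces1b; Abhd6, Dbp, Tef, Hlf, Nfil3, Cfd, Plin4 and Pck1 were named after their values were seen. Identity and shared 101-base windows came from GENCODE vM21 transcripts (GRCm38) with Biopython 1.88, so levels per coding length rest on another annotation than the counts. Gm45909 overlaps Ces1d and Gm45724 lies antisense to Ces3a in that annotation. Over all libraries they had 475 and 1910 counts. The fit was tested on simulated data. Alternatives were DESeq2 1.42.0, limma 3.58.1 voom, other scalings and filters, only the groups compared, a replicate block and leaving out libraries.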

Additional observations from a re-analysis of the deposited data

Results flagged for a closer look

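In 6 of 45 groups of 4 livers, 1 value stood apart from the other 3 by Dixon's criterion, which chance meets in about 1 in 20 groups. Ces2a in HFD control 3 was at 79.8 CPM against 125 to 134 in the other 3. Ces2e in lean 3 was at 70.9 CPM against 103 to 110 (109.8). Ces2g in HFD control 1 was at 48.5 CPM against 43.8 to 44.3, a narrow group. Ces3a in lean 3 was at 1399 CPM against 2179 to 2320. Ces2b in NM-FGF19 3 was at 8.30 CPM against 0.136 to 0.847, and Ces3b in HFD control 2 at 581 CPM against 39.6 to 129. Lean 3 and HFD control 3, with 3 of the 6, were also the libraries farthest from their group centres.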

How the results depend on the processing

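Over 21 alternatives, gene values kept their side of the threshold in 5271 cases, lost a call in 115 and gained one in 80, with 0 called values changing sign. For the 10 genes these were 576, 41, 13 and 0. Values that were not called could change sign and still count as kept. Ces1c ran from −0.35 to 0.040 between the diets, and Ces1f from −0.35 to 0.11 with treatment. The number of calls moved far more than the sizes. Higher and lower counts over all genes were 770 and 502 between the diets, 43 and 23 for NM-FGF19 against HFD control, and 154 and 74 against lean. With DESeq2 they were 1299 and 921, 175 and 114, and 601 and 368, and voom gave 65 and 47 against lean. Library totals alone gave 2383 and 228, 26 and 30, and 346 and 52, or 91.3%, 46.4% and 86.9% higher instead of 60.5%, 65.2% and 67.5%. With only the groups compared the counts were 618 and 274, 23 and 15, and 74 and 43. Without lean 3 and HFD control 3 they were 323 and 157, 24 and 14, and 165 and 64. Leaving out 1 library gave 331 to 926 and 196 to 602, 9 to 62 and 8 to 34, and 43 to 181 and 24 to 92.

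The replicate block gave 384 and 209, 12 and 6, and 25 and 15. With the block, 0 of the 10 genes were called in any comparison. Same-numbered samples showed little shared deviation (r from −0.363 to 0.0712), though replicate 3 was a same-number best match between HFD control and lean. With 4 mice a group, such correlations cannot settle if the numbers stand for a shared factor. Among the 10 genes, DESeq2 called 2 higher between the diets (8.5% of all genes) and 4 lower with treatment (0.746%). Library totals called 3 higher between the diets and 0 higher with treatment, beside 2383 and 26 of all genes. Only the groups compared gave 1 higher between the diets, 1 lower with treatment and 1 lower against lean, beside 618, 15 and 43 of all genes. Without the filter, 1 was lower in each treatment comparison (30 and 75 of all genes), as when lean 3 and HFD control 3 were both omitted (14 and 64). Leaving out 1 library gave 0 to 3 higher between the diets, 0 to 1 higher and 1 to 2 lower with treatment, and 0 to 2 in each direction against lean. The cause of these shifts was not tested.

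For neutral lipid hydrolases, DESeq2 called 5 higher between the diets, 1 lower with treatment and 1 higher against lean, library totals 5 higher and 1 higher against lean, the block 1, and single libraries left out 2 to 5. For VLDL partners, DESeq2 called 3 lower between the diets and 1 higher with treatment, and leaving out 1 library 0 to 1 lower. For nuclear receptors, DESeq2 called 2 higher, library totals 3 and leaving out 1 library 0 to 2. For the other esterases, library totals called 6 higher between the diets, the block 1, lean 3 and HFD control 3 left out 0, and single libraries 0 to 3 (0 to 1 against lean). For CAR and PXR targets, DESeq2 called 4 higher between the diets, 4 lower with treatment, and 3 higher and 1 lower against lean. With lean 3 and HFD control 3 omitted these were 1 higher, 1 lower and 1 lower, and without 1 library 0 to 1 lower with treatment and 0 to 1 higher against lean. Gusb was called higher with library totals (1). The other carboxylesterases had 0 to 2 lower between the diets without 1 library.

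Some list medians changed sign. That of the 10 genes against lean was 0.017 without lean 1 (−0.31 to 0.017 without 1 library). That of the other carboxylesterases was −0.13 against lean with voom and 0.29 between the diets without the filter. Without 1 library it ran from −1.14 to 0.27 between the diets, above 0 without lean 4, HFD control 3 (0.091) or HFD control 4 (0.088), from −0.040 (without NM-FGF19 3) to 1.34 with treatment, and from −0.17 to 0.49 against lean. That of nuclear receptors between the diets was 0.17 with library totals, 0.083 with lean 3 and HFD control 3 omitted and −0.14 to 0.042 without 1 library, and Gusb against lean was 0.033 with library totals.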
